A study of Mus musculus with 26 samples.

Results

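CBP and p300 are paralogous coactivators that acetylate histones and are brought to enhancers and promoters by DNA-binding transcription factors. Both are commonly used as marks of active enhancers, and they share most of their protein domains. In fat cells, C/EBP factors and the nuclear receptor PPARγ are known to recruit such coactivators during differentiation. The CBP and p300 peak lists of untreated 3T3-L1 adipocytes were joined here by overlap of their windows, and the sites held by both, by CBP alone and by p300 alone were compared. The joined sites numbered 20699, of the 67815 formed by all 15 peak lists of the series.

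3T3-L1 is an established mouse fibroblast line that becomes fat-storing in culture. All cells had been differentiated with dexamethasone, insulin and 3-isobutyl-1-methylxanthine. The series has 26 samples of nascent RNA sequencing, ChIP-seq and input, and the 15 ChIP-seq libraries with peak lists were analysed here. The lists used were untreated CBP and p300 (1 library each, immunoprecipitated with separate antibodies), untreated MED1 (2 libraries), NCOR, CEBPa, CEBPb, ATF2, JUND and FOSL2 (1 library each), and the CBP, p300, NCOR (1 library each) and MED1 (2 libraries) lists of cells given 1 µM rosiglitazone in DMSO. Rosiglitazone is an agonist of PPARγ. Neither the duration of rosiglitazone before ChIP-seq nor a vehicle for the untreated cells is stated. The adipocyte label was not checked against marker genes, since a peak list carries no expression values.

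MED1 is a subunit of Mediator, the complex that links enhancer-bound factors to RNA polymerase II. NCOR is a corepressor that brings histone deacetylase activity to chromatin. CEBPa and CEBPb are leucine zipper factors of the fat cell programme, JUND and FOSL2 are subunits of AP-1, and ATF2, another leucine zipper protein, can pair with JUN family members. Each list entry is a window of 200 bp carrying the authors' peak score, and each list is sorted by it. A percentile below is the rank of a score within its own list, with 100 the highest. Scores of different lists were not compared, because the labels do not state how they were scaled.

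The untreated CBP list held 15383 peaks and the p300 list 15007, so list length differed little. The CBP scores ran from 1.00 to 17.01 with a median of 1.77, and the p300 scores from 1.05 to 17.81 with a median of 1.76. Scores within a list moved in steps of 0.0589 for CBP and 0.0551 for p300, and the lowest listed peaks stood at 17 and 19 steps. What 1 step stands for is not stated, and read depth is unknown. MED1 replicates 1 and 2 had 5660 and 4656 peaks, NCOR had 25136, CEBPa had 12332, CEBPb had 14937, ATF2 had 24192, JUND had 23509 and FOSL2 had 22716. A list with more peaks can hold more sites, so shares are compared between classes of sites within a list, not between lists. With 1 library for CBP and 1 for p300, the comparison is of these libraries and has no replicate check. Intervals are at 95% and cover counting error only, and no p-value was computed, since sites are not replicates of a condition.

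CBP and p300 were listed together at 9689 sites, which was 46.8% of all sites (Wilson interval 46.1 to 47.5). CBP alone was listed at 5692 sites (27.5%, 26.9 to 28.1) and p300 alone at 5318 (25.7%, 25.1 to 26.3). Where both were present their windows lay almost on top of each other. The centres were a median of 24 bp apart at the 9687 shared sites with 1 window of each, and at most 50 bp apart at 79.8% of them. At the edge of the joining rule, 89 shared sites had windows overlapping by at most 50 bp, while 66 CBP-only sites had a p300 window less than 50 bp beyond their end and 58 p300-only sites had a CBP window as near. Most single-list sites were thus not near misses in position. Whether the other coactivator had a weaker, unlisted peak there was not tested. A p300 centre lay within 1000 bp of 12.1% of CBP-only sites, and a CBP centre within 1000 bp of 11.5% of p300-only sites. The median distances to the nearest window of the other coactivator were 14519 bp and 15009 bp.

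Sites of all 3 classes lay on all 20 chromosomes listed. The shared class made up between 36.4% of the 264 sites on the X chromosome and 50.0% of the 1085 sites on chromosome 8. Shared sites were also the most clustered. Another CBP or p300 site lay within 10 kb of 63.1% of shared sites (62.2 to 64.1), against 53.7% of CBP-only (52.4 to 55.0) and 51.0% of p300-only sites (49.6 to 52.3).

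Whether a peak was shared rose with its rank. Each list was divided by score into 10 bands, band 10 the highest, with tied scores kept together, so that bands held 1250 to 1855 CBP peaks and 1300 to 1839 p300 peaks. In band 1 of CBP, with scores of 1.00 to 1.12, 32.1% of peaks were also in the p300 list (30.0 to 34.3). In band 10, with scores from 4.00, 89.7% were (88.1 to 91.1). For p300 the shares in the CBP list were 30.2% (27.8 to 32.6) in band 1 and 95.7% (94.6 to 96.6) in band 10. The lists did not rise at the same pace. In band 2 CBP peaks were shared more often, at 41.3% (38.7 to 44.0) against 34.0% (31.5 to 36.6). From band 7 upward p300 peaks were the ones shared more often, with intervals that did not overlap, and in band 9 the shares were 90.1% for p300 (88.4 to 91.5) and 83.3% for CBP (81.3 to 85.1).

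**Figure D1:**
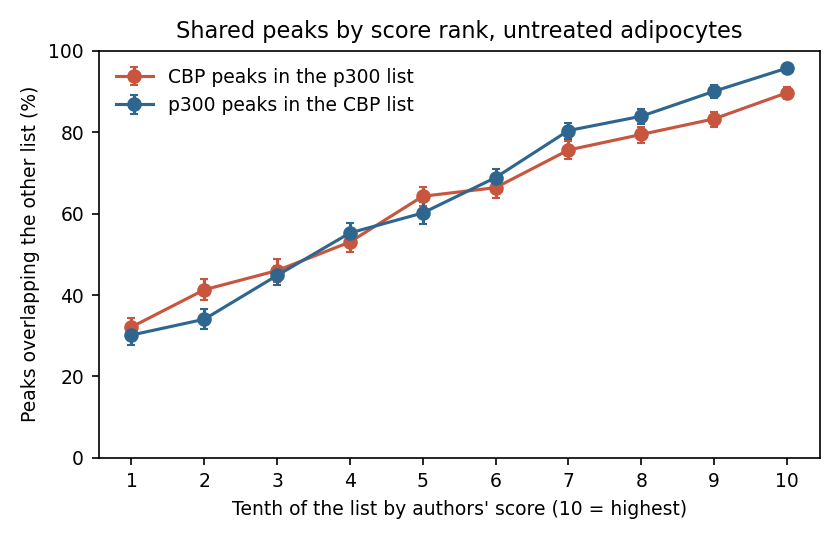
Share of peaks overlapping a window of the other coactivator (%, vertical axis) by band of the list's score rank (horizontal axis, 10 the highest), for untreated CBP (red) and p300 (blue). Bars are 95% Wilson intervals. Sharing rises from 30.2% for p300 and 32.1% for CBP in band 1 to 95.7% and 89.7% in band 10.

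More of the strong CBP peaks stood alone. There were 157 CBP-only sites in band 10 of the CBP list (2.76% of CBP-only sites, 2.36 to 3.22) and 64 p300-only sites in band 10 of the p300 list (1.20%, 0.944 to 1.53). The median percentile was 30.9 for CBP-only sites and 28.45 for p300-only sites. Shared sites had medians of 62.5 in the CBP list and 62.7 in the p300 list. The ranks of shared sites followed each other, with a Spearman rho of 0.703 over 9689 sites, given as a description since the sites come from the same 2 libraries. The median gap between the 2 percentiles was 12.35 points. CBP ranked more than 25 points higher at 1058 shared sites, and p300 did so at 1214. Of 1522 sites in band 10 of CBP and 1500 in that of p300, 849 were in both, 55.8% of the first and 56.6% of the second.

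The 10 shared sites with the highest mean percentile fell into 2 kinds. The regions are given in mm8, counted from 1, and no gene names were attached since no annotation of that build was used here. The site on chromosome 6 from 115477148 to 115477353 had scores of 13.59 for CBP and 17.81 for p300, the highest p300 peak of all, and was held by all 8 other untreated lists. Its MED1 scores were 19.98 and 18.00, and its CEBPa and CEBPb scores were 9.46 and 10.60. Further sites of this kind lay on chromosome 6 from 115204308 to 115204507 (CBP 14.95, p300 14.77), from 114823707 to 114823907 (14.48 and 12.02), from 99140981 to 99141186 (11.47 and 14.00) and from 17228459 to 17228678 (13.71 and 11.47). Each was held by all 8 other lists. The site on chromosome 5 from 104477111 to 104477315 (11.47 and 14.00) held 6 of them and neither C/EBP factor.

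The other 4 of these 10 held none of the 5 transcription factors and no NCOR. A pair lay on chromosome 11 from 97979878 to 97980094 (CBP 17.01, p300 14.99) and from 97968691 to 97969051 (13.59 and 13.23), and a pair on chromosome 17 from 39455784 to 39455985 (16.30 and 14.06) and from 39451846 to 39452048 (15.36 and 13.34). Among these 4, the last alone held MED1, in replicate 1 with a score of 9.62. They were high in both coactivator lists with next to none of the partners seen at the chromosome 6 sites. Whether input was subtracted is not stated, and background signal at these 4 regions was not tested.

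Across the classes, each of the 8 other untreated lists was found most often at shared sites. ATF2 was at 81.3% of shared sites (80.5 to 82.1), against 57.3% of CBP-only (56.0 to 58.6) and 43.5% of p300-only sites (42.2 to 44.8). Over all 20699 sites ATF2 was at 65.0%. NCOR was at 80.6% of shared sites (79.8 to 81.3), 50.1% of CBP-only (48.8 to 51.4) and 47.5% of p300-only sites (46.1 to 48.8), with 63.7% over all sites. The corepressor was thus at a larger share of sites holding the pair of coactivators than of sites holding either alone.

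The AP-1 subunits followed the order of ATF2. JUND was at 61.8% of shared (60.9 to 62.8), 42.7% of CBP-only (41.4 to 44.0) and 31.0% of p300-only sites (29.8 to 32.2), with 48.6% over all sites. FOSL2 was at 44.9% (43.9 to 45.9), 33.3% (32.1 to 34.5) and 22.5% (21.4 to 23.7), with 36.0% over all sites. The C/EBP factors had the same order with a smaller gap between the single-list classes. CEBPa was at 42.0% of shared (41.0 to 43.0), 22.7% of CBP-only (21.6 to 23.8) and 17.7% of p300-only sites (16.7 to 18.8), with 30.5% over all sites. CEBPb was at 46.3% (45.3 to 47.3), 26.8% (25.6 to 27.9) and 21.1% (20.0 to 22.2), with 34.5% over all sites.

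Against the 11010 single-list sites together, shared sites were higher by 16.8 points for FOSL2 (15.5 to 18.1), the smallest difference, and by 31.7 points for NCOR (30.5 to 32.9), the highest among the lists without replicates. Since shared sites ranked higher, the shares were also standardised over 4 bands of score percentile. A shared site was banded by the mean of its CBP and p300 percentiles, and a single-list site by its only percentile. A coactivator missing from a site did not lower its band, so the classes were matched on listed scores only. The differences were then 9.77 points for CEBPa (8.41 to 11.1), 9.80 for CEBPb (8.40 to 11.2), 10.2 for FOSL2 (8.77 to 11.7), 16.5 for JUND (15.0 to 18.0), 18.7 for NCOR (17.2 to 20.1), 21.1 for ATF2 (19.7 to 22.6) and a mean of 16.3 for MED1, smaller and still called.

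MED1 was the exception in the order of the single-list classes. In replicate 1 it was at 40.2% of shared sites (39.2 to 41.1), 5.59% of CBP-only (5.02 to 6.21) and 12.0% of p300-only sites (11.1 to 12.9), with 23.4% over all sites. In replicate 2 the shares were 26.6% (25.8 to 27.5), 6.54% (5.92 to 7.21) and 8.18% (7.47 to 8.95), with 16.4% over all sites. Shared sites exceeded single-list sites by 25.4 ± 8.62 points (SD, n = 2), 31.5 in replicate 1 and 19.3 in replicate 2. Both MED1 lists held p300-only sites more often than CBP-only sites, while the transcription factors did the opposite.

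**Figure D2:**
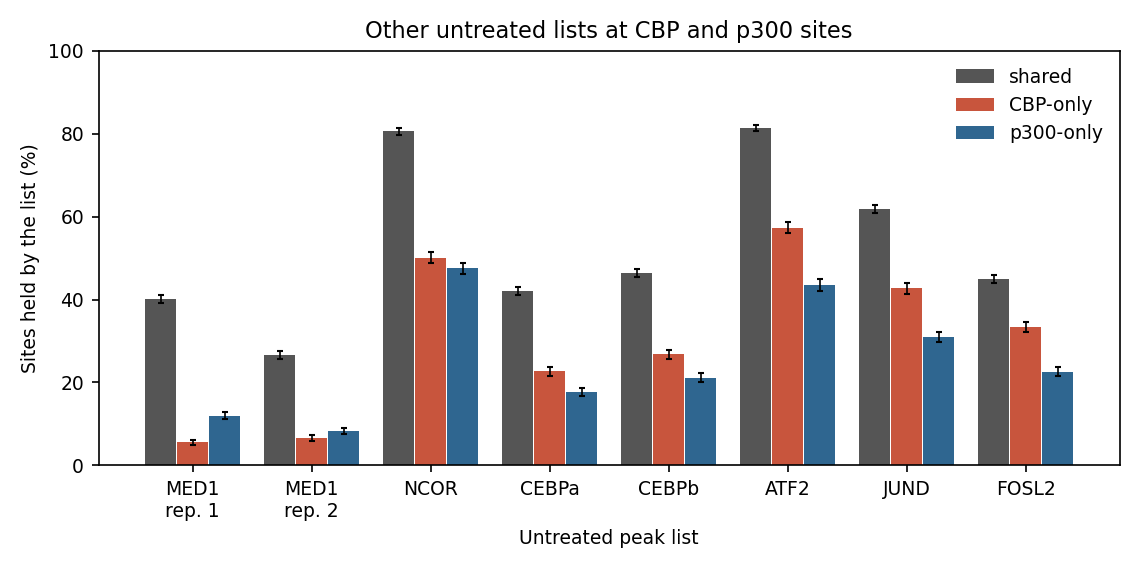
Share of sites held by each of the 8 other untreated lists (%, vertical axis) at shared (grey), CBP-only (red) and p300-only (blue) sites, with 95% Wilson intervals. The 5 transcription factors are lower at p300-only than at CBP-only sites, while both MED1 lists are higher there, at 12.0% against 5.59% in replicate 1 and 8.18% against 6.54% in replicate 2.

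The difference between CBP-only and p300-only sites was largest for ATF2 and the AP-1 subunits. It is given in percentage points as CBP-only minus p300-only with Newcombe's interval, and is called a difference where that interval leaves out 0. It was 13.8 points for ATF2 (12.0 to 15.7), 11.7 for JUND (9.93 to 13.5) and 10.8 for FOSL2 (9.10 to 12.4). For these 3 factors the CBP-only share was the higher on 20 of 20 chromosomes. CEBPb was higher by 5.68 points (4.09 to 7.26), also on 20 of 20 chromosomes, and CEBPa by 4.99 points (3.49 to 6.48), on 17 of 20. NCOR was higher by 2.64 points (0.774 to 4.51), on 16 of 20 chromosomes. Standardised over 4 bands of score percentile, the NCOR difference was 0.467 points (-1.33 to 2.27, by normal approximation), which was not called. The differences of the 5 transcription factors stayed called under each alternative tried, though in size CEBPa ran from 2.94 to 14.5 points and CEBPb from 3.52 to 17.2. Within the lowest of the 4 score bands taken alone, neither was called, at 0.834 points for CEBPa (-1.02 to 2.70) and 1.67 for CEBPb (-0.382 to 3.72).

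MED1 differed by -6.39 points in replicate 1 (-7.46 to -5.34) and by -1.64 points in replicate 2 (-2.63 to -0.669). The mean was -4.02 ± 3.36 points (SD, n = 2), so the size depended on the replicate while the direction did not. The mean also moved with the score threshold, to -1.54 points with the upper 50% of each MED1 list, to -11.9 with the upper 50% of the CBP and p300 lists, and to -10.5 for sites whose own peak was in the upper 50%, each still called in both replicates. The share at p300-only sites was the higher on 20 of 20 chromosomes in replicate 1 and on 14 of 20 in replicate 2. Whether the 2 MED1 lists stem from different cultures is not stated, and the SD may therefore be technical only. Most MED1 sites found in both replicates were sites of both coactivators. Of 1941 such sites, 86.1% held CBP and p300 (84.5 to 87.6), 6.29% held p300 alone (5.29 to 7.45), 3.4% held CBP alone (2.68 to 4.303) and 4.17% held neither (3.37 to 5.16). Sites of replicate 2 alone held p300 alone and CBP alone about equally, at 11.5% (10.3 to 12.7) and 11.3% (10.2 to 12.6), while sites of replicate 1 alone did so at 13.8% (12.7 to 14.9) and 6.997% (6.22 to 7.86).

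The gap between the 2 single-list classes was wider among stronger peaks for ATF2, AP-1 and MED1. Sites were placed in 4 bands of score percentile. In the lowest band, up to 25, ATF2 was at 43.7% of CBP-only and 37.7% of p300-only sites, a difference of 5.95 points (3.21 to 8.68). In the highest band, above 75, it was at 79.8% and 55.2%, a difference of 24.5 points (18.2 to 30.8), and the 2 intervals did not overlap. JUND went from 33.8% and 26.7% in the lowest band to 59.3% and 33.0% in the highest, and FOSL2 from 27% and 20.1% to 50.8% and 24.4%. At CBP-only sites AP-1 thus became more common with peak strength, while at p300-only sites it lay between 20.1% and 26.5% for FOSL2 and between 26.7% and 37.0% for JUND in all 4 bands.

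MED1 widened in the opposite direction. In replicate 1 its share at p300-only sites went from 5.72% in the lowest band to 32.1% in the highest, but at CBP-only sites from 3.67% to 10.1%. The difference in the highest band was -21.98 points (-27.7 to -16.4), over 583 CBP-only and 324 p300-only sites. In replicate 2 it was -12.1 points (-17.6 to -7.00) in the highest band and was not called in the second band, at 0.209 points (-1.62 to 2.00). The NCOR difference was called in none of the 4 bands, at -1.47 to 3.20 points, and NCOR reached 82.5% and 82.7% in the highest. CEBPa reached 53.3% and 48.8%, a difference of 4.58 points that was not called (-2.20 to 11.3), and CEBPb 59.5% and 51.5%, a difference of 7.98 points (1.24 to 14.7).

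**Figure D3:**
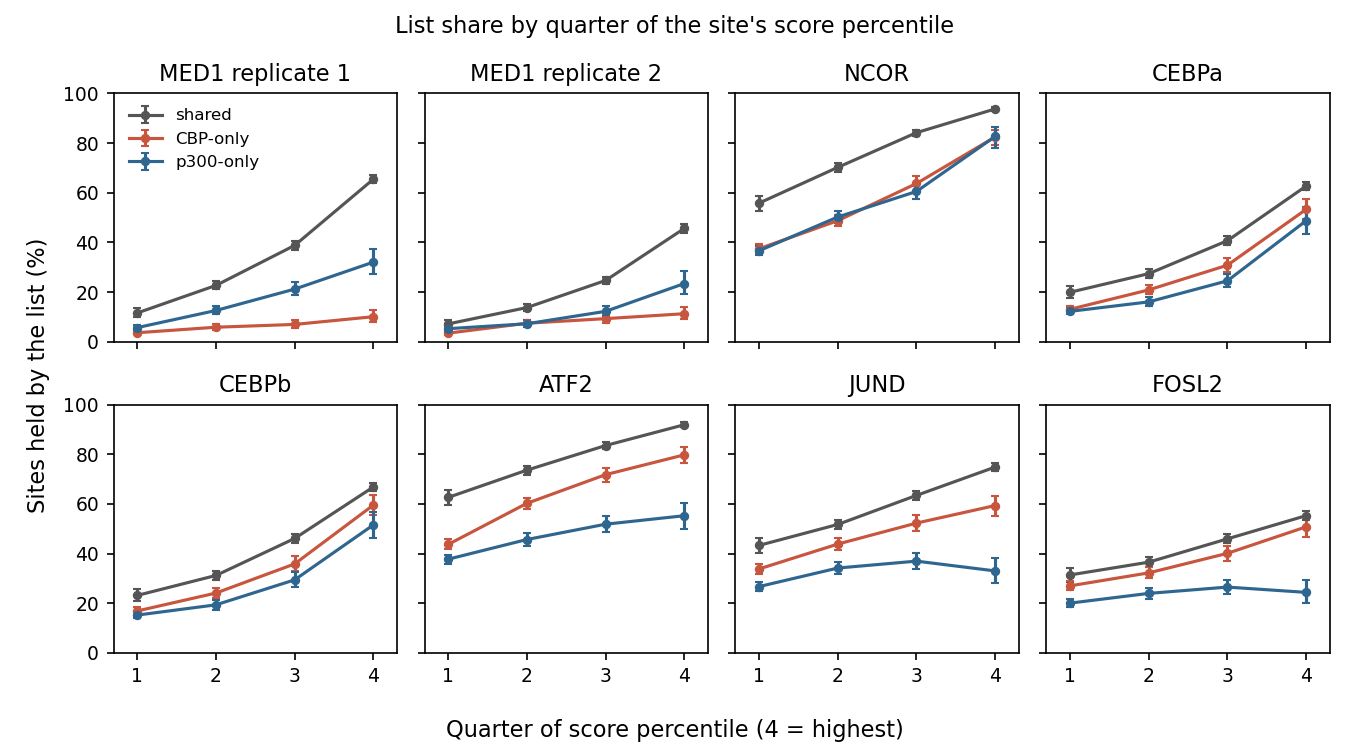
Share of sites held by each list (%, vertical axis) in 4 bands of the site's score percentile (horizontal axis, 4 the highest; the mean of both percentiles for shared sites), by class, with 95% Wilson intervals. In the highest band ATF2 is at 79.8% of CBP-only and 55.2% of p300-only sites, MED1 replicate 1 at 10.1% and 32.1%, and NCOR at 82.5% and 82.7%.

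Transcription factors also came in fuller combinations at CBP-only sites. The mean number of the 5 factors was 2.76 at shared, 1.83 at CBP-only and 1.36 at p300-only sites. None of the 5 was listed at 7.82% of shared (7.30 to 8.38), 21.8% of CBP-only (20.7 to 22.9) and 34.2% of p300-only sites (33.0 to 35.5). All 5 were listed at 14.6% (14.0 to 15.4), 4.02% (3.54 to 4.56) and 1.50% (1.21 to 1.87). Sites with none of the 8 other lists made up 12.9% of CBP-only (12.1 to 13.8) and 20.9% of p300-only sites (19.8 to 21.97), but 2.59% of shared sites (2.29 to 2.93). Sites with no mapped partner were thus most frequent in the p300-only class.

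Grouping the factors as C/EBP (CEBPa or CEBPb), ATF2 and AP-1 (JUND or FOSL2) gave 8 patterns. Of the 11010 single-list sites as a whole, 51.7% were CBP-only (50.8 to 52.6). Those with no factor were CBP-only in 40.5% (38.8 to 42.3). With AP-1 and no other factor the CBP-only share was 51.2% (48.5 to 53.9), with ATF2 and no other 50.5% (48.0 to 53.0), and with C/EBP and no other 47.6% (44.2 to 51.0). Of these 3, the intervals of AP-1 and of ATF2 held the 51.7% of all single-list sites, while that of C/EBP lay below it. With ATF2 and AP-1 together it was 60.5% (58.5 to 62.5), with C/EBP and ATF2 59.9% (56.7 to 63.1), and with all 3 groups 67.1% (63.8 to 70.2). With C/EBP and AP-1 but no ATF2 it was 52.4% (46.2 to 58.6), which also held 51.7%. The CBP-only share was thus highest in the 3 combined patterns that hold ATF2, from 59.9% to 67.1%, and no more than 52.4% in the others. The patterns were not split by score. In the lowest of the 4 score bands there were 2374 CBP-only and 2568 p300-only sites, and in the highest 583 and 324. Each factor was also more common in the highest band than in the lowest at both classes. How far score rank enters the shares of the patterns was not tested.

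MED1 was lower at CBP-only than at p300-only sites in all 8 patterns in replicate 1 and in 7 of 8 in replicate 2, the exception being ATF2 with no other factor (6.44% and 5.82%). At single-list sites with all 3 factor groups, MED1 replicate 1 was at 6.88% of CBP-only and 21.4% of p300-only sites, against 50.9% of shared sites. Replicate 2 was at 11.6%, 19.9% and 44.6%. With no factor, replicate 1 was at 3.63% and 8.79% and replicate 2 at 3.79% and 4.01%. Among sites holding 3 of the 5 factors, the difference was -10.3 points in replicate 1 (-13.2 to -7.62) and -6.72 points in replicate 2 (-9.62 to -4.00). Among those holding no factor it was -5.16 points in replicate 1 (-6.82 to -3.46) and not called in replicate 2, at -0.221 points (-1.59 to 1.24). Replicate 1 was called at every number of factors from 0 to 5, but replicate 2 was not called at 1 factor, at 0.0721 points (-1.87 to 2.02), or at 5 factors, at -2.28 points (-12.6 to 5.98). In the other direction, at single-list sites without MED1 in either replicate, ATF2 was higher at CBP-only sites by 15.4 points (13.4 to 17.4), JUND by 13.2 (11.3 to 15.1) and FOSL2 by 11.4 (9.55 to 13.2).

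As a share of all sites of the class, AP-1 without ATF2 was at 13.9% of CBP-only and 14.1% of p300-only sites, a difference of -0.152 points that was not called (-1.45 to 1.14). ATF2 without AP-1 was at 23.6% and 21.6%, a difference of 1.97 points (0.407 to 3.53), and C/EBP without ATF2 or AP-1 was lower at CBP-only sites, at 6.96% and 8.20%, a difference of -1.24 points (-2.24 to -0.253). The values are larger when only sites lacking the other factors are counted, a base that holds the sites with no factor, which are more frequent in the p300-only class. Where neither JUND nor FOSL2 was listed, ATF2 was at 45.1% of CBP-only and 33.7% of p300-only sites, a difference of 11.3 points (8.92 to 13.7). Where ATF2 was not listed, JUND or FOSL2 was at 32.6% and 24.9%, a difference of 7.72 points (5.30 to 10.1). Where ATF2 and AP-1 were both absent, a C/EBP factor was at 24.2% and 19.3%, a difference of 4.88 points (2.26 to 7.53). Sites were also split by NCOR, a split chosen after seeing the data. Where NCOR was absent the JUND difference was 14.5 points (12 to 16.97), and where it was present 8.76 points (6.17 to 11.3). Where NCOR was absent, the MED1 difference was -4.50 points in replicate 1 (-5.78 to -3.25) and was not called in replicate 2, at -0.457 points (-1.49 to 0.575).

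The factor peaks themselves also ranked differently. FOSL2 peaks at CBP-only sites had a median percentile of 69.7 in the FOSL2 list, above those at shared sites (64.1) and at p300-only sites (57.1). JUND peaks had medians of 63.1 at CBP-only, 64.5 at shared and 49.0 at p300-only sites, and ATF2 peaks 57.5, 71.0 and 46.2. The AP-1 peaks at CBP-only sites thus had a median near that at shared sites for JUND and above it for FOSL2. The FOSL2 quartiles were the same at these 2 classes, 38.46 and 87.85. CEBPa medians were 54.2 at CBP-only and 52.1 at p300-only sites, and both MED1 lists had the same median at the 2 classes, 35.9 in replicate 1 and 43.4 in replicate 2. These ranks are given as a description. Much of each factor list lay outside both coactivator lists, 67.3% of FOSL2, 57.2% of JUND, 52.3% of CEBPb, 49.0% of CEBPa, 47.6% of NCOR and 44.4% of ATF2 peaks, against 14.6% and 27.6% of the MED1 peaks of replicates 1 and 2.

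Shared sites allow the same contrast without relying on absence from a list. They were ranked by CBP percentile minus p300 percentile and cut into 5 groups of equal size. In the p300-leaning group of 1938 sites the median percentiles were 30.9 for CBP and 67.5 for p300, and in the CBP-leaning group of 1938 they were 67.3 and 35.6, so the 2 groups were of similar strength. ATF2 was at 71.3% of p300-leaning (69.2 to 73.2) and 86.4% of CBP-leaning sites (84.8 to 87.9), a difference of 15.2 points (12.6 to 17.7). JUND differed by 16.6 points (13.5 to 19.6), from 50.9% to 67.5%, and FOSL2 by 17.4 points (14.4 to 20.5), from 33.5% to 51.0%. The AP-1 and ATF2 lists leaned to CBP here too.

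CEBPa differed by 10.1 points (7.06 to 13.0), from 30.1% to 40.1%, CEBPb by 10.2 points (7.09 to 13.2), from 34.7% to 44.9%, and NCOR by 8.20 points (5.52 to 10.9), from 71.8% to 80.0%. MED1 replicate 1 went the other way, from 42.3% at p300-leaning (40.1 to 44.5) to 20.5% at CBP-leaning sites (18.7 to 22.3), a difference of -21.8 points (-24.6 to -18.9). In replicate 2 the shares were 20.7% and 16.9%, a difference of -3.87 points (-6.33 to -1.41), and the mean of both was -12.8 ± 12.7 points (SD, n = 2). With shared sites cut into 2 groups in place of 5 the mean MED1 difference was -7.96 points and the replicate 2 interval reached 0.0881, so that call was lost. MED1 was at its highest in the middle group, at 54.6% and 39.5%, where both coactivators ranked high, with medians of 81.4 and 83.0. CEBPa, CEBPb and NCOR were also highest there, at 51.7%, 56.4% and 86.6%. ATF2 and JUND were instead highest in the CBP-leaning group, and FOSL2 in the group next to it, at 51.3%.

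**Figure D4:**
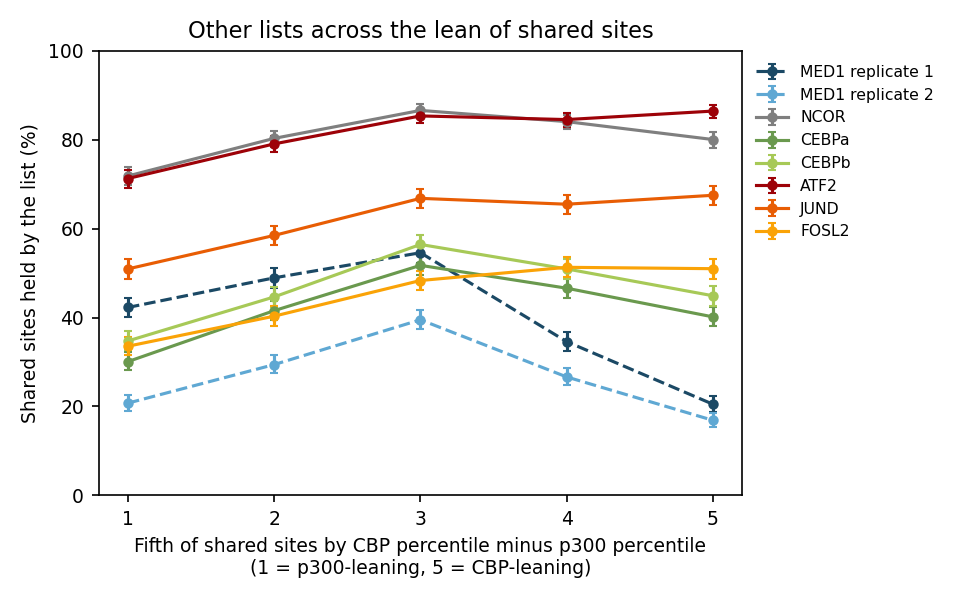
Share of shared sites held by each list (%, vertical axis) in 5 equal groups by CBP percentile minus p300 percentile (horizontal axis, 1 p300-leaning, 5 CBP-leaning), with 95% Wilson intervals. MED1 (dashed) falls from the middle group towards both ends. It is at 42.3% and 20.7% in the p300-leaning group and at 20.5% and 16.9% in the CBP-leaning group, for replicates 1 and 2. In the CBP-leaning group ATF2 stands at 86.4% and JUND at 67.5%.

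Lists of rosiglitazone-treated cells, which the joining did not use, were then laid over the same sites. Shared sites were held by the treated CBP list at 65.8% (64.9 to 66.8) and by the treated p300 list at 74.0% (73.1 to 74.8), and by both at 55.6% (54.6 to 56.6). CBP-only sites were held by treated CBP at 26.8% (25.7 to 28.0) and by treated p300 at 20.5% (19.5 to 21.6). p300-only sites were held by treated p300 at 41.8% (40.5 to 43.1) and by treated CBP at 14.8% (13.8 to 15.7). Each single-list class was thus found more often in the treated list of its own coactivator. The treated lists had 9515 CBP and 13746 p300 peaks, and that difference in length enters these shares. Of CBP-only sites 61.4% (60.1 to 62.7) were in neither treated list, and of p300-only sites 54.6% (53.2 to 55.9).

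A class call in untreated cells was therefore repeated in full at a minority of sites. Of CBP-only sites 1031 (18.1%, 17.1 to 19.1) held CBP and not p300 after treatment too, and of p300-only sites 1632 (30.7%, 29.5 to 31.9) held p300 and not CBP. The coactivator was exchanged at fewer sites. Treated p300 alone was at 670 CBP-only sites (11.8%, 10.96 to 12.6) and treated CBP alone at 195 p300-only sites (3.67%, 3.19 to 4.21). Among CBP-only sites in the upper 50% of the CBP list the share held by treated CBP was 52.6% (50.1 to 55.1), and among p300-only sites in the upper 50% the share held by treated p300 was 63.7% (61.0 to 66.4).

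**Figure D5:**
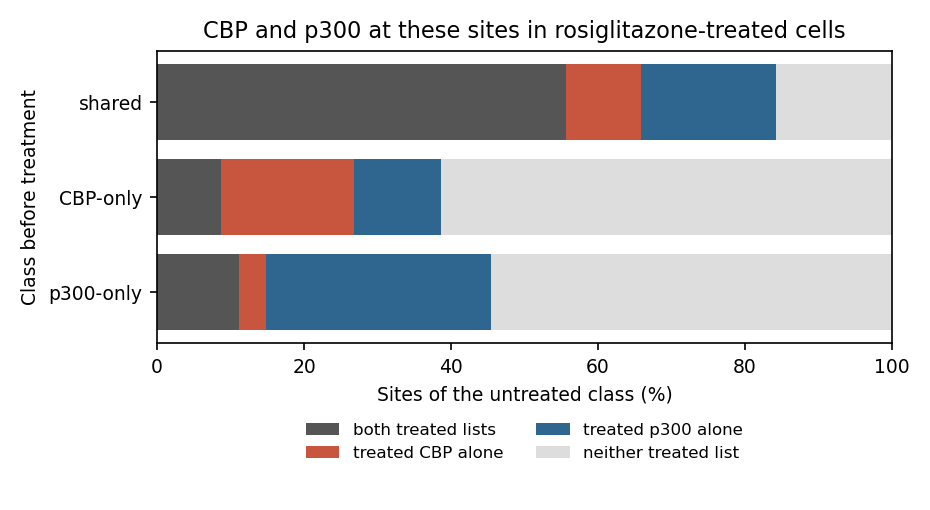
Share of the sites of each untreated class (%, horizontal axis) that were in both treated lists, treated CBP alone, treated p300 alone or neither treated list. Both treated lists hold 55.6% of shared sites, while 61.4% of CBP-only and 54.6% of p300-only sites are in neither.

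The sites that kept their class in both conditions separated more sharply by transcription factor than all single-list sites, in a comparison chosen after seeing the data. They were not matched to the other sites by score rank. Stronger single-list peaks were held more often by the treated list of their own coactivator. ATF2 was at 74.7% of the 1031 CBP-only and 45.3% of the 1632 p300-only sites, a difference of 29.3 points (25.7 to 32.8). JUND differed by 25.95 points (22.2 to 29.7), at 56.2% and 30.2%, and FOSL2 by 22.6 points (18.97 to 26.2), at 43.7% and 21.1%. The C/EBP factors were at 32.2% and 17.7% for CEBPa, a difference of 14.5 points (11.1 to 17.9), and at 38.3% and 21.1% for CEBPb, a difference of 17.2 points (13.7 to 20.8). MED1 replicate 1 was at 4.27% and 16.4%, a difference of -12.2 points (-14.3 to -9.93), while replicate 2 was at 7.47% and 8.33%, which was not called (-2.91 to 1.30). Choosing by score alone, sites whose own peak was in the upper 50% differed by 22.03 points for ATF2, 18.97 for JUND and 18.11 for FOSL2. For CEBPa and CEBPb these differences were 8.391 and 9.499 points. How much of the sharper separation comes from score rank was not tested. Over all single-list sites the treated MED1 lists were also higher at p300-only sites, by 10.1 points in replicate 1 (8.81 to 11.5), at 20.1% against 9.98%, and by 3.20 points in replicate 2 (2.07 to 4.33), at 11.8% against 8.56%.

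Among the 583 CBP-only sites of the highest score band, NCOR was at 82.5%, CEBPa at 53.3%, CEBPb at 59.5% and ATF2 at 79.8%. JUND was at 59.35%, FOSL2 at 50.8%, and MED1 at 10.1% and 11.3% in replicates 1 and 2. All 10 of the strongest CBP-only sites held NCOR, CEBPa, CEBPb and ATF2. Of these 10, 5 held JUND and none held MED1 in either replicate, close to those shares, and 3 held FOSL2. The first, on chromosome 15 from 59310396 to 59310595 with a CBP score of 9.77, had a FOSL2 score of 20.77, a JUND score of 14.10 and an ATF2 score of 9.75, and its nearest p300 centre was 1029 bp away. The site on chromosome 2 from 155570376 to 155570575 (CBP 9.12) also held all 5 factors, with the nearest p300 centre 51009 bp away. Chromosome 19 from 28409735 to 28409934 (9.47), chromosome 8 from 129410743 to 129410942 (9.47), and 2 sites of chromosome 6, from 30499770 to 30499969 (8.47) and from 115387371 to 115387570 (8.06), held both C/EBP factors and ATF2 but no AP-1 subunit, and remained CBP without p300 after rosiglitazone. In that order, their nearest p300 centres in untreated cells were 6097, 15179, 820 and 698 bp away. On chromosome 19 from 40490307 to 40490506 (9.65) the same factors were listed, but after rosiglitazone p300 was listed there with a score of 6.26 and CBP was not. The rest of the 10 began at 49662599 and 32259121 of chromosome 2 and at 54771240 of chromosome 1, and held CBP and p300 after rosiglitazone.

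Over the 324 p300-only sites of the highest score band, NCOR was at 82.7%, CEBPa at 48.8%, CEBPb at 51.5% and ATF2 at 55.25%. JUND was at 33.0%, FOSL2 at 24.4%, and MED1 at 32.1% and 23.5% in replicates 1 and 2. The 10 strongest had percentiles of 97.24 to 99.41, against 99.2 to 99.8 for the 10 strongest CBP-only sites. Of these p300-only 10, 8 held NCOR, 7 CEBPa, 7 CEBPb, 5 ATF2, 5 JUND and 3 FOSL2. MED1 was at 4 in replicate 1 and at 5 in replicate 2, and 2 of the 10 held no factor. The first, on chromosome 19 from 15971777 to 15971976 with a p300 score of 8.49, held 4 factors and MED1 in replicate 1, and held CBP as well after rosiglitazone. The site on chromosome 6 from 58881282 to 58881481 (7.11) held MED1 in both replicates (6.01 and 6.25) and 4 factors, with the nearest CBP centre 16777 bp away. On chromosome 5 from 138437118 to 138437317 (7.11) the C/EBP factors and MED1 replicate 2 (7.39) were listed without ATF2 or AP-1, and p300 without CBP after rosiglitazone. On chromosome 6 from 119365067 to 119365266 (5.84) the NCOR score was 18.44, and both C/EBP factors and MED1 replicate 2 (4.45) were listed. The site on chromosome 16 from 92164571 to 92164770 (7.11) held MED1 in both replicates, and a CBP centre lay 280 bp away. The 2 without any factor, on chromosome 11 from 35593753 to 35593952 (6.73) and on chromosome 2 from 77810889 to 77811088 (5.79), held none of the 8 lists. Their nearest CBP centres were 391 and 725758 bp away. The remaining 3 began at 23705884 of chromosome 13, 112544168 of chromosome 12 and 140458511 of chromosome 5, and held 4, 3 and 5 factors.

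MED1 in both replicates was rare at single-list sites, at 68 CBP-only sites (1.19%, 0.943 to 1.51) and 126 p300-only sites (2.37%, 1.99 to 2.81), against 1679 shared sites (17.3%, 16.6 to 18.1). The highest of the CBP-only kind lay on chromosome 6 from 114826817 to 114827016, with a CBP score of 5.88, MED1 scores of 3.08 and 2.37, and JUND and FOSL2 scores of 8.46 and 9.84. The next, on chromosome 1 from 138499557 to 138499756 (5.83), was held by all 8 lists, with the nearest p300 centre 213615 bp away. The others began at 52090435 of chromosome 6, at 125683250 of chromosome 5 and at 44469584 of chromosome 19, with p300 centres 24279, 305 and 201 bp away. All 5 held ATF2 and JUND, 4 held FOSL2, 3 NCOR, 2 CEBPa and 2 CEBPb. The last shows how the joining rule acts: its CBP window (5.83) ended at 44469783 and the p300-only site with the third highest score of the MED1 kind (5.57) ran from 44469785 to 44469984, with centres 201 bp apart. The other p300-only sites of this kind, beside those on chromosomes 16 and 6 above, began at 23588895 on chromosome 13 (4.91) and 65630001 on chromosome 5 (4.91). All 5 held NCOR, 4 held ATF2, 4 JUND, 3 CEBPb, 2 CEBPa and 2 FOSL2. With 5 sites in each set, these counts are a description only.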

How the data were processed

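ChIP-seq peak lists of 3T3-L1 adipocytes were used as the authors deposited them, 1 list per library with no pooling. The submitters' processing notes name Bowtie, HOMER and bedtools, and mm8 as the build. Their versions and roles, the peak threshold and any input correction are unstated in the labels. The deposited score of each peak was used only for ranks within a list. Groups were taken from sample titles. CBP and p300 windows overlapping by 1 bp or more were chained into sites, and a list held a site when a window of it overlapped by 1 bp or more. Shares carry Wilson intervals and differences Newcombe intervals, at 95%, with no p-value, because each list is 1 library. Differences standardised over score bands carry intervals from a normal approximation instead. Named regions are the 10 highest by percentile in each class and the 5 highest single-list sites with MED1 in both replicates. The members and tests were chosen with earlier results of these data known. Read depth is unknown, so precision was judged from numbers of sites. The code was tested on simulated data. Python 3.11.15, numpy 2.4.6 and scipy 1.17.1 were used. Alternatives covered the joining distance, score thresholds, list length, score bands and each MED1 replicate left out. After seeing the data, 4 were added: sites over 1000 bp from the other list, sites of the same class in both conditions, sites split by NCOR, and sites of fixed width. Nascent RNA and input samples were not analysed here. No mm8 genome or annotation was used, so no sequence, motif or gene is given.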

Additional observations from a re-analysis of the deposited data

How the results depend on the processing

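For the 5 transcription factors, all 55 recomputed differences between CBP-only and p300-only sites, all 35 between shared and single-list sites and all 10 within shared sites kept their direction and their call, at 2.94 to 29.3, 9.77 to 33.7 and 7.33 to 23.5 points. The NCOR difference between single-list classes was 0.467 points when standardised over score bands, no longer called. The MED1 difference lost its call at -6.51 points for sites of the same class in both conditions, at -2.48 points without NCOR (both chosen after seeing the data) and at -7.96 points with shared sites cut into 2 groups, each time through replicate 2. No paired analysis was possible because the untreated CBP and p300 libraries have no replicates.

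The shared percentage was 44.2% with an overlap of 50%, 48.5% with centres at most 500 bp apart and 49.3% in the upper 50% of both lists, where 5141 shared, 2802 CBP-only and 2476 p300-only sites were left since fewer peaks entered. The treated lists were laid over the classes of the main joining, which were not rejoined. With treated centres allowed up to 500 bp away, treated CBP and p300 held 29.2% and 23.5% of CBP-only and 17.3% and 44.8% of p300-only sites. With overlap of 1 bp and sites in the upper 50% of their list, the shares were 52.6% and 27.5%, and 26.5% and 63.7%. Without a known depth, absence from a list was not separated from weak binding.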
